A study of Homo sapiens with 2 samples.

Results

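The E2F transcription factors and their DP partners were examined in H1299 cells, a human line of non-small cell lung carcinoma known to lack p53 protein, grown without treatment (control) or with 5 mM metformin, a biguanide that inhibits respiratory complex I. The 10 genes, E2F1 to E2F8, TFDP1 and TFDP2, were chosen by their NCBI gene IDs among the 27685 gene IDs of the deposited tables, and all 10 were listed in both libraries. RNA of each condition was sequenced as 1 library, with an estimated 28.7 M read pairs in control and 31.7 M in metformin. Both cultures were of this 1 line, in the same serum-containing medium, and for how long metformin was given is not stated in the labels. Abundance is given as TPM, a transcript abundance scaled to the same sum in each library, which corrects for transcript length and is relative to all transcripts of a library. With 1 library a condition there is no replicate spread and no test, and the 95% intervals beside the values cover the counting of read pairs alone.

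E2F proteins bind DNA as dimers with a DP protein and govern genes for S phase entry. E2F1, E2F2 and E2F3 activate transcription when the retinoblastoma protein releases them. E2F4 and E2F5 act mainly as repressors together with the pocket proteins p107 and p130, E2F6 represses through a Polycomb complex, and E2F7 and E2F8, called atypical, bind DNA without a DP partner and restrain E2F1 in S phase.

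The activator E2Fs and both DP genes were listed lower in the metformin library. Of the repressor E2Fs, E2F8 was lower as well and E2F6 was higher, at 1.21 of control. E2F4, E2F5 and E2F7 stood at 0.945, 0.844 and 0.926 of control. Of the 10 genes, 9 had a difference below 0, which was true of 59.7% of the 14078 genes that reached 1 TPM in either library. The difference is that of log2(TPM + 1), metformin minus control. On this scale 1 member, E2F2, was lower by 2-fold or more, against 1.24% of all measured genes, and 4 members (E2F1, E2F2, E2F8 and TFDP2) were lower by 1.5-fold or more, against 7.03%. No member was higher by 1.5-fold, which 5.4% of the genes were. The median difference was -0.54 over the 10 members and -0.08 over all measured genes. The members and the lists below were chosen with earlier results of these data known, so their counts are not a test. In bulk RNA, fewer cells in a phase of the cycle and less RNA per cell cannot be told apart.

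**Figure D1:**
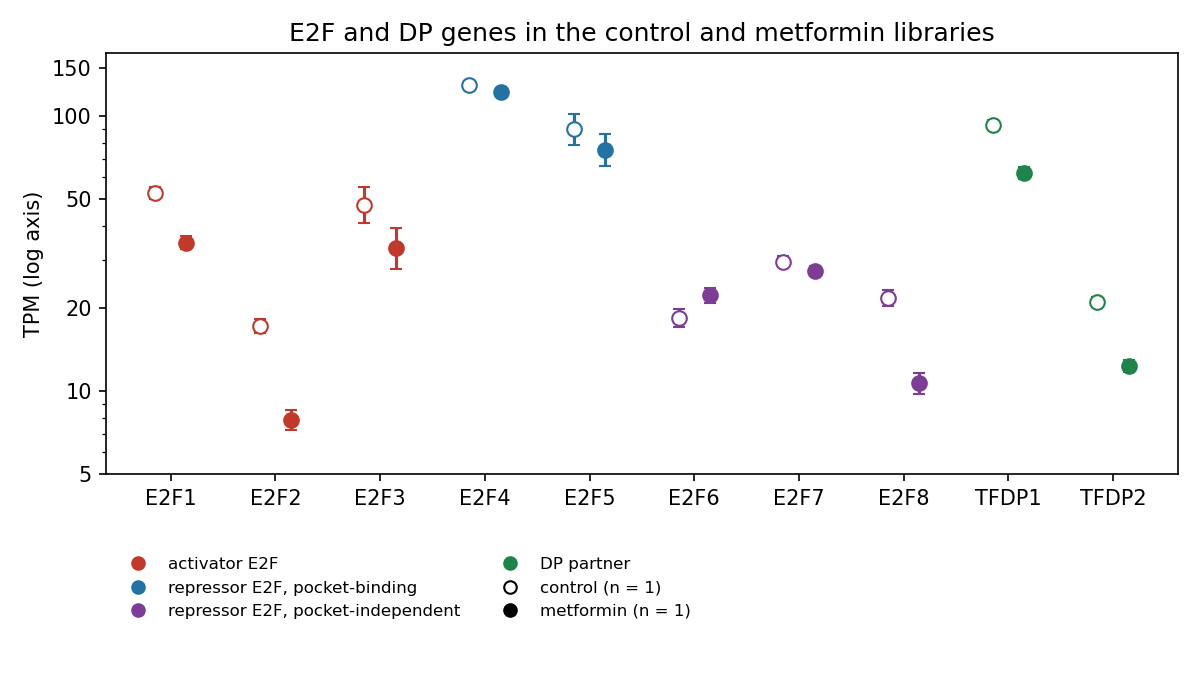
TPM (log axis) of each gene in the control library (open circles) and the metformin library (filled circles), 1 library each; bars are 95% counting intervals and colours give the class. E2F4 is the highest gene in both libraries, at 130.1 and 123.0 TPM, and E2F2 the lowest, at 17.2 and 7.87 TPM.

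Among the activators, E2F1, the founding member that also has a known part in apoptosis, had 52.7 TPM without and 34.7 TPM with metformin. That was 0.659 of control (95% counting interval 0.613 to 0.709). E2F1 (NCBI gene 1869) lies on the minus strand of chromosome 20 at 32263292 to 32274210 of hg19. E2F2, an activator of S phase entry in proliferating cells, had 17.2 TPM without and 7.87 TPM with metformin. Its ratio of 0.457 (0.412 to 0.506) was the lowest of the family, and 1.03% of measured genes had a difference as low or lower. E2F2 (gene 1870) lies on the minus strand of chromosome 1 at 23832920 to 23857712. E2F3, which with E2F1 and E2F2 is required for proliferation of many cells, had 47.7 TPM without and 33.2 TPM with metformin, for a ratio of 0.696 (0.552 to 0.876). E2F3 (gene 1871) lies on the plus strand of chromosome 6 at 20402137 to 20493945. All activators were thus listed lower in metformin, with differences of -0.59, -1.04 and -0.51 for E2F1, E2F2 and E2F3, and no counting interval of their ratios reached 1. E2F1 stood just past the 1.5-fold limit of 0.585.

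Both DP genes were lower as well. TFDP1, the main partner of E2F1 to E2F6, had 93.2 TPM without and 62.3 TPM with metformin, 0.668 of control (0.627 to 0.713). TFDP2, the second DP protein, had 21.2 TPM without and 12.4 TPM with it, 0.584 of control (0.547 to 0.622). Their differences were -0.57 and -0.73. TFDP1 (gene 7027) lies on the plus strand of chromosome 13 at 114239003 to 114295788 and TFDP2 (gene 7029) on the minus strand of chromosome 3 at 141663270 to 141868386. TFDP1 held 81.5% of the summed DP TPM in control and 83.5% in metformin. TFDP3, a testis gene of the same family, was listed at 0 in both libraries.

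The promoters of these genes are shown because E2F factors are known to control some of their own genes. They were searched after the values were seen. The known E2F site was searched on both strands in the 250 bases before each annotated start in RefSeq (GRCh38.p14), as TTTCCCGC, TTTCGCGC, TTTGCCGC or TTTGGCGC. It occurred in 2.79% of the 35116 promoters of the table, and 3.40% of the genes there held it at any start. Of the 8 members in the table, 4 held it: E2F1, E2F2, E2F3 and TFDP1. E2F4, E2F6, E2F7 and TFDP2 had no such run at any start listed for them, and neither did the second start of E2F3. E2F5 and E2F8 were not in the table. The 130 bases before the start are given 5′ to 3′ on the strand of the gene, with matches in capitals. They are shown for the genes that held the site and for E2F4, a member without it.
E2F1, chr20:33686386-33686515, minus strand: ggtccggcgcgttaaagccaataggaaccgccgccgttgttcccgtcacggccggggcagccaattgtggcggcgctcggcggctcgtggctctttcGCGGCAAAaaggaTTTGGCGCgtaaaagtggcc
E2F2, chr1:23531234-23531363, minus strand: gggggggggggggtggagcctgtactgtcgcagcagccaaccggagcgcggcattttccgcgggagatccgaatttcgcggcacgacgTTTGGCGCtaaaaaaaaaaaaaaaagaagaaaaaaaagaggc
E2F3, chr6:20401749-20401878, plus strand: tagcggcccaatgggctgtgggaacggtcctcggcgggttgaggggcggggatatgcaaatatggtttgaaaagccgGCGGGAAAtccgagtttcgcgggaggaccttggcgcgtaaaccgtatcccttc
TFDP1, chr13:113584623-113584752, plus strand: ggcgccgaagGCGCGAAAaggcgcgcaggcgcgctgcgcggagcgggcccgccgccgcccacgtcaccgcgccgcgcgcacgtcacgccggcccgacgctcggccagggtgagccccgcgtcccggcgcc
E2F4, chr16:67192025-67192154, plus strand: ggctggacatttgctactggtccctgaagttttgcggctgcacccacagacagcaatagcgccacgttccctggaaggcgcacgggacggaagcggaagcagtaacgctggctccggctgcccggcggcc

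E2F1 had 2 matches, whose first bases lay 33 and 20 bases before the start, on opposite strands. In E2F2 the match began 42 bases before the start, in E2F3 53 and in TFDP1 120. With the first T left out, so that 7 letters had to match, 10.9% of promoters held the site. Counted by gene over all starts, which is a looser count, 5 of the 8 members did. E2F7 was the one added, with matches 176 and 133 bases before its start. TFDP2, which had a lower ratio than TFDP1, held neither form. Whether the site bears on the differences was not tested. A match describes these letters alone, and binding was not measured.

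Of the repressors that work with pocket proteins, E2F4 differed little between the libraries, and E2F5 was less well resolved. E2F4, the most abundant E2F of many cells, had 130.1 TPM without and 123.0 TPM with metformin, its ratio being 0.945 (0.901 to 0.991). Its difference of -0.08 equalled, to 2 decimals, the median of all measured genes, and it was 0.01 after centring on the median of well expressed genes. E2F4 (gene 1874) lies on the plus strand of chromosome 16 at 67226068 to 67232821. E2F5, which pairs with p130 in resting cells, had 89.6 TPM without and 75.7 TPM with metformin, its ratio being 0.844. Its interval of 0.698 to 1.02 included 1 but also reached down nearly to the E2F3 ratio of 0.696.

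Among the repressors that do not bind pocket proteins, the 3 genes went apart. E2F6 was the only member listed higher in metformin, from 18.5 TPM in the control library to 22.4 TPM, 1.21-fold (1.09 to 1.33), and its difference of 0.26 lay at percentile 82.9 of all measured genes. E2F7 had 29.6 and 27.4 TPM in the control and metformin libraries, its ratio being 0.926 (0.871 to 0.984). E2F8 had 21.8 TPM without and 10.7 TPM with metformin, 0.490 of control (0.439 to 0.547). E2F8 thus lay with the activators, next to E2F2, while its close relative E2F7 did not. Its plain ratio was past 2-fold, but its difference of -0.97 on the log2(TPM + 1) scale was just short of it. E2F6 (gene 1876) lies on the minus strand of chromosome 2 at 11584501 to 11606303. E2F7 (gene 144455) lies on the minus strand of chromosome 12 at 77415026 to 77459360 and E2F8 (gene 79733) on that of chromosome 11 at 19245610 to 19263202.

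**Figure D2:**
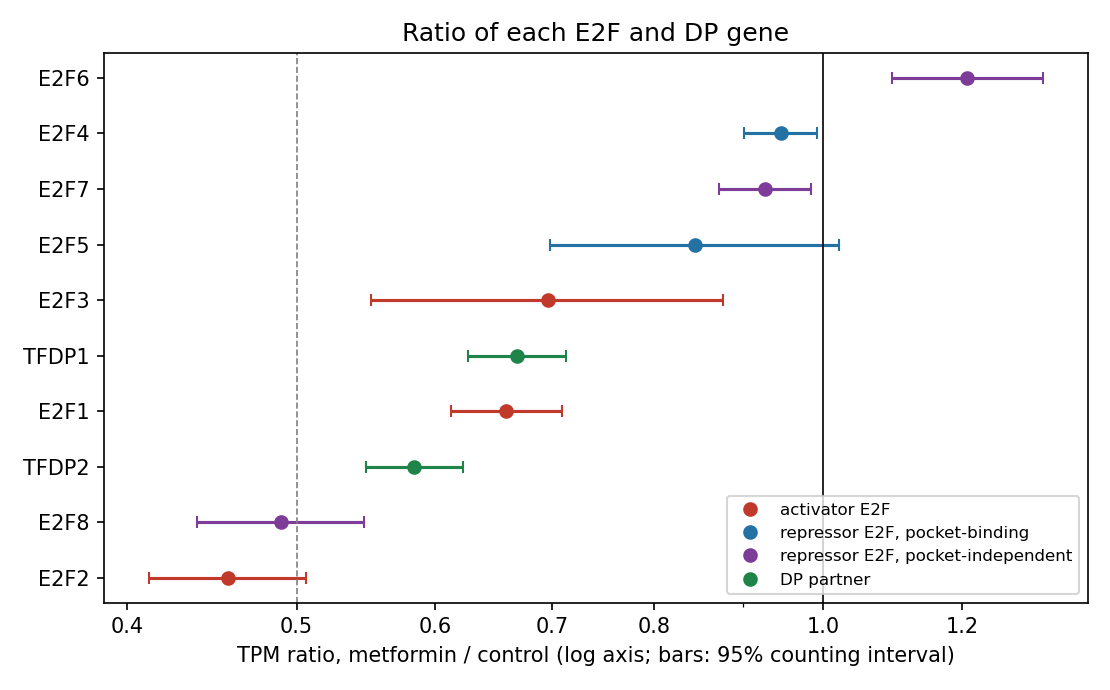
Ratio of TPM, metformin over control (log axis), for each gene, with 95% counting intervals; colours give the class, the solid line marks 1 and the dashed line 0.5. E2F2 and E2F8 lie lowest, at 0.457 and 0.490, and E2F6 at 1.21 is the point above 1.

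Set against each other, the classes overlapped through E2F8. The differences ran from -1.04 to -0.51 in the 3 activators, with a median of -0.59, and from -0.97 to 0.26 in the 5 repressors, with a median of -0.11. Apart from E2F8, every repressor lay above every activator by its listed value. The ratio interval of E2F3 (0.552 to 0.876) overlapped those of E2F5 (0.698 to 1.02) and E2F7 (0.871 to 0.984), so counting does not settle their order. The medians were 0.48 apart, and members of a class are not replicates of one another. Summed over genes, the activators stood at 118 TPM without and 75.8 TPM with metformin, a ratio of 0.644, and the repressors at 290 and 259 TPM, a ratio of 0.895. The activators therefore held 28.9% of all E2F transcripts in control and 22.6% in metformin. By TPM, E2F4 alone held 32.0% and 36.7%, and E2F6 held 4.54% and 6.67%. Activator transcripts per transcript of E2F4 and E2F5 went from 0.535 to 0.381. These sums and shares rest in part on the TPM of E2F3 and E2F5, whose levels are uncertain, as given below.

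The DP sum was 114 TPM without and 74.7 TPM with metformin, a ratio of 0.653, while that of E2F1 to E2F6, the members that need a DP partner, was 356 and 297 TPM, a ratio of 0.834. By TPM there were 3.11 transcripts of these E2Fs for each DP transcript in control and 3.97 in metformin. E2F7 and E2F8 together stood at 51.4 and 38.1 TPM, and that lower sum was carried mostly by E2F8.

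By TPM the order in control was E2F4, TFDP1, E2F5, E2F1, E2F3, E2F7, E2F8, TFDP2, E2F6 and E2F2. The counting intervals of neighbours overlapped for TFDP1 and E2F5, for E2F1 and E2F3, for E2F8 and TFDP2 and for E2F6 and E2F2. In metformin the order was E2F4, E2F5, TFDP1, E2F1, E2F3, E2F7, E2F6, TFDP2, E2F8 and E2F2. The intervals overlapped there for E2F1 and E2F3 and for E2F3 and E2F7. E2F6 moved from rank 9 to 7 and E2F8 from 7 to 9.

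The levels of E2F3 and E2F5 depended on the column of the deposited tables. For most genes coverage, the mean read depth over a gene, is proportional to FPKM, and in E2F1, E2F2, E2F4 and E2F7 both gave the same level. In E2F3 the coverage was 6.99 reads deep in control and 5.40 in metformin, which is 5.96% and 5.85% of what its FPKM of 20.2 and 14.4 would give. Only 0.97% of genes in control had a lower ratio of coverage to FPKM. In E2F5 the coverage was 23.6 and 22.5, or 10.7% of that from its FPKM in each library. By coverage per Gb of aligned bases, E2F3 was the lowest member, at 1.21 in control and 0.844 in metformin, and E2F5 the next lowest in control, at 4.06. Their places in the TPM order are therefore uncertain, whereas their ratios between libraries were nearly the same by coverage, 0.700 for E2F3 and 0.865 for E2F5. With coverage the activators held 26.0% of the E2F sum in control and 19.0% in metformin. E2F4 then held 46.5% and 52.5%, E2F6 6.30% and 9.05%, and E2F5 3.42% and 3.45%. Activators per E2F4 and E2F5 were 0.521 and 0.339 by coverage, and E2F1 to E2F6 per DP 2.62 and 3.45. E2F5 (gene 1875), at 86089619 to 86126753 on the plus strand of chromosome 8, also shares exon positions with RBIS on the other strand, and E2F8 with the noncoding CSRP3-AS1. The labels do not say whether reads were counted by strand, so those of these pairs cannot be told apart.

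**Figure D3:**
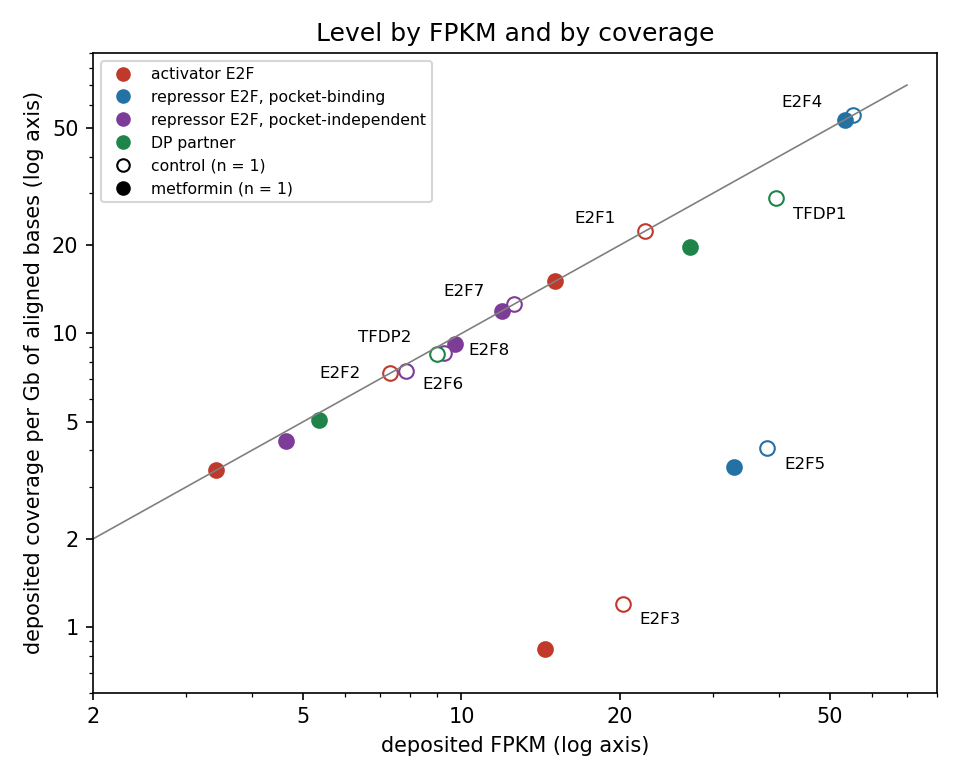
Deposited FPKM against deposited coverage per Gb of aligned bases (both axes log) for the 10 genes, control open and metformin filled; the line marks equality. E2F3 and E2F5 lie far below the line in both libraries, TFDP1 somewhat below it, and the others on or near it.

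Pocket proteins bind E2Fs and shut their targets, and with the MuvB core they form the DREAM complex. The counts of this and the following lists stand against 59.7% below 0, 7.03% lower and 5.4% higher by 1.5-fold among all measured genes, whose median was -0.08. Of 8 genes of that list, 6 (75.0%) were below 0, not far from that share, 2 were lower by 1.5-fold or more and 1 was higher by that much, with a median of -0.40. RBL1, which encodes p107 and is itself an E2F target, was listed at 18.9 and 10.5 TPM, 0.555 of control. Its promoter held the 8-letter site at 2 positions, 26 and 16 bases before the start. RB1, RBL2 and MYBL2 held it at no start listed for them, with 8 or with 7 letters. RB1, the retinoblastoma gene, was listed at 40.4 and 31.6 TPM, 0.782 of control, and RBL2, which encodes p130, at 37.8 and 39.6 TPM with an interval of the ratio from 0.972 to 1.13. The MuvB genes LIN9 and LIN37 went opposite ways, at 0.639 and 1.54 of control. MYBL2 and FOXM1, which take over MuvB to activate mitotic genes, had 0.667 and 0.673 of their control TPM, MYBL2 with 204 and 136 TPM and FOXM1 with 250 and 168 TPM.

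E2F6 works in the Polycomb complex PRC1.6, and the genes of that complex are given beside it. Of 10, 8 were below 0 and 0 were past 1.5-fold in either direction, with a median of -0.25. With 10 genes, a count of 0 is near those shares over all measured genes. After median centring or trimmed mean scaling 6 of 10 were below 0, against 49.1% and 50.1% of all measured genes. CBX3, a heterochromatin protein, and PCGF6, the Polycomb subunit that defines the complex, stood at 0.708 and 0.756 of control. YAF2, a RING-binding subunit, was listed at 11.8 and 16.5 TPM and RING1, a ubiquitin ligase, was listed at 50.7 and 51.3 TPM.

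Upstream, cyclins D and E with their kinases phosphorylate pocket proteins and so free E2Fs. Of the 8 genes, 7 were below 0 and 1 (12.5%) was lower by 1.5-fold or more, near the 7.03% of all genes, with a median of -0.34. With FPKM and after either centring 6 of the 8 were below 0. CCNE2, cyclin E2 and an E2F target, was listed at 30.1 and 15.5 TPM, 0.514 of control, and CDK2, its kinase, stood at 0.700. CCND1 was listed at 204 TPM in both libraries, and CCND2 at 3.33 and 3.64. CDK inhibitors mostly lay on the other side: 6 of 7 had a positive difference, against 40.3% of all measured genes. By 1.5-fold or more 3 were higher, and the list median was 0.21. The ratio intervals of CDKN1B (0.939 to 1.08) and CDKN1C (0.667 to 2.14) included 1. CDKN1C was listed at only 1.13 and 1.34 TPM. CDKN2D and CDKN2B, inhibitors of CDK4 and CDK6, were higher by 2.58-fold (2.16 to 3.11) and 1.82-fold (1.69 to 1.96). CDKN2C, of the same INK4 family, stood at 0.692 of control and CDKN1B, which encodes p27, was listed at 53.7 and 54.0 TPM.

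Of 9 measured regulators that act on E2F proteins, 7 were below 0 and 3 (33.3%) were lower by 1.5-fold or more, against 7.03% of all genes, with a median of -0.18. After either centring 6 of the 9 were below 0. CCNA2, cyclin A2, whose kinase ends E2F1 binding to DNA in S phase, was listed at 135 and 70.9 TPM, 0.527 of control. CCNF, an F-box protein known to direct the breakdown of activator and atypical E2Fs, stood at 0.534. SIRT1, a deacetylase, and UXT, a prefoldin-like cofactor, were higher by 1.11-fold and 1.15-fold.

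Downstream, all 46 listed target genes of G1 and S phase were below 0 in metformin, and 28 of them, 60.9%, were lower by 1.5-fold or more, against 7.03% of all measured genes. Their median of -0.65 was close to that of the DP genes and the activators, and the list shares RBL1, CCNE1 and CCNE2 with the lists above. RRM2, the regulated subunit of ribonucleotide reductase, was lower by more than 2-fold, at 293 and 144 TPM. RPA1, a single-strand binding protein, lay near control, at 0.898. Among the 39 targets in the promoter table, 15 held the E2F site of 8 letters, 38.5%, against 3.40% of all genes in the table counted over all their starts. The list holds known E2F targets and was chosen with earlier results of these data known. Neither its counts nor its share of sites is therefore a test.

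Of 10 apoptosis genes known as E2F1 targets, 6 were below 0 and 4 above, a share near that of all measured genes (59.7% below 0), with a median of -0.16. By 1.5-fold or more 1 was lower, near the 7.03% of all genes, and 3 were higher, against 5.4%. BMF, a BH3-only protein, was listed at 3.32 and 7.82 TPM, higher by 2.35-fold (1.99 to 2.80). APAF1, which forms the apoptosome, stood at 0.671 of control (0.617 to 0.729).

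**Figure D4:**
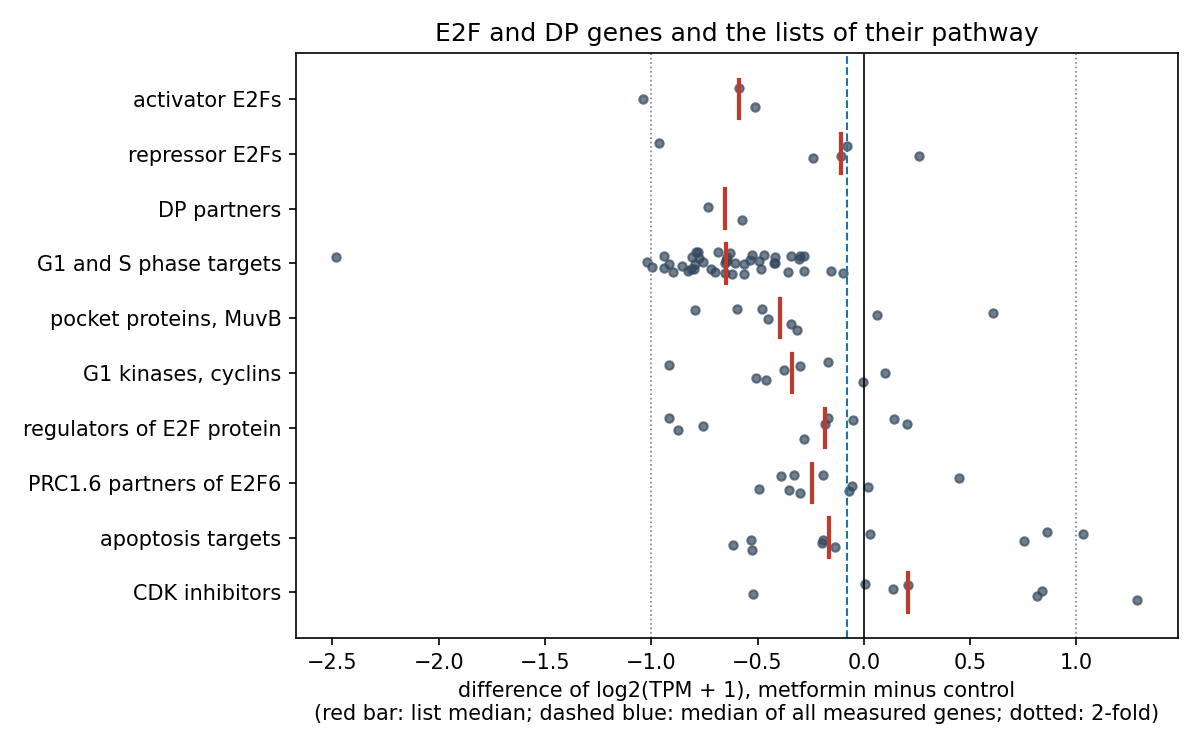
Difference of log2(TPM + 1), metformin minus control, of each measured gene (points) in the classes of E2F and DP genes and the lists of their pathway; red bars are list medians, the dashed line is the median of all measured genes (-0.08) and dotted lines mark 2-fold. The targets of G1 and S phase lie wholly below 0, and 6 of 7 CDK inhibitors above it.

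Over the whole transcriptome 213 genes were higher and 175 lower by 2-fold or more, 1.51% and 1.24%, and after centring on the median of genes with 10 TPM or more the split was 270 and 114. The line was checked against fixed markers. Keratin genes KRT8 and KRT18 went from 269 to 521 TPM and from 553 to 954 TPM, while EPCAM, CDH1 and KRT19, other epithelial markers, were below 1 TPM in both libraries. VIM, the mesenchymal filament vimentin, was listed at 4378 and 4962 TPM. Of the other mesenchymal markers, CDH2 was lower in metformin, at 22.9 and 19.1 TPM, and FN1 higher, at 18.2 and 23.8 TPM. All 15 markers of lung lineage, immune, endothelial and fibroblast cells were below 1 TPM, with sums of 1.65 and 1.70 TPM in control and metformin.

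The members' differences were also computed with other pseudocounts, columns and scalings. E2F4 changed sign under the scalings that centre the libraries, at 0.01 in each, and E2F2 was no longer past 2-fold there, at -0.95 after median centring and -0.96 after trimmed mean scaling. E2F1 was no longer lower by 1.5-fold at a pseudocount of 5 or with FPKM, at -0.54 in each, nor after median centring or trimmed mean scaling, at -0.50 in each. With the dependence on transcript GC content and length removed, E2F1, which has the highest GC content of the members at 61.6%, stood at -0.73 and E2F4 at -0.19. E2F7 was at -0.02 after either centring and with the trend removed. Some list medians moved by more than 1.5 times: that of the CDK inhibitors was 0.54 with FPKM and 0.51 with a minimum of 5 TPM, that of the regulators of E2F protein -0.09 after median centring, that of the PRC1.6 genes -0.16 and that of the apoptosis targets -0.08 there, the last being -0.05 with a minimum of 5 TPM.

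**Figure D5:**
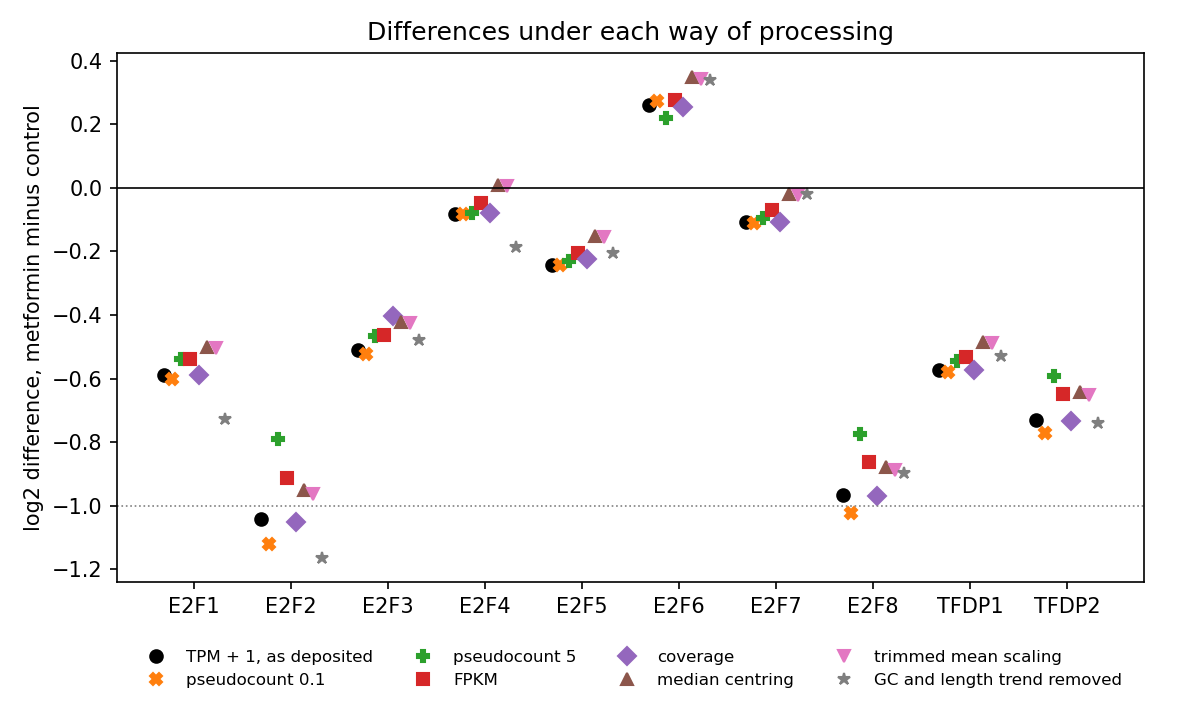
Log2 difference, metformin minus control, of each gene under the main processing (black circles) and 7 alternatives; the dotted line marks 2-fold lower. E2F1, E2F2, E2F3, E2F8, TFDP1 and TFDP2 stay below -0.4 under all of them, and E2F6 above 0.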

How the data were processed

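Per the labels' protocols, library preparation used Illumina's TruSeq Stranded mRNA LT kit, sequencing a NovaSeq instrument, and mapping to hg19 Bowtie2. The submitters' processing notes name Trimmomatic 0.38 and HISAT2. No source used here names the program behind the abundances. TPM and FPKM per gene were computed by the authors, and coverage, the mean read depth of a gene, was likewise deposited. TPM was the main unit.

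Rows of 1 gene ID were summed. Symbols came from a RefSeq gene table (27559 of 27685 IDs matched). Read pairs were estimated as coverage times the canonical transcript length (GENCODE 44) over 202 bases, the most common base total of short rows with few reads, and they made up 91.8% and 91.7% of the depth. Where coverage is below FPKM this gives the wider interval. Intervals are exact (Clopper-Pearson for ratios, Poisson for levels), at 95%. A gene counted as measured if it reached 1 TPM in either library. The difference used a pseudocount of 1, which understates differences of low genes. Genes named from a list are its 2 highest and 2 lowest, besides the 10 members, the pocket proteins, MYBL2, FOXM1 and CDKN1C. Some genes this rule took are not reported here. No gene was named for a like pattern, since any 2 profiles over 2 libraries are correlated at 1 or -1. Members and lists were chosen with earlier results of these data known. The promoter sites were searched after the values were seen. The difference and its call rule were tested on simulated data. Python 3.11.15 was used.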

Additional observations from a re-analysis of the deposited data

How the results depend on the processing

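Each value was recomputed with a pseudocount of 0.1 or 5, with FPKM or coverage, with median centring or trimmed mean scaling, with no minimum or 5 TPM (for lists and all genes) and, for the members and the targets of G1 and S phase, without the GC and length trend. Over 7 alternatives the median of the members ranged from -0.55 to -0.45 and the gap between activators and repressors from -0.54 to -0.44, and 3 or 4 members were lower by 1.5-fold, E2F1 being the one lost. All 46 targets of G1 and S phase stayed below 0, with 20 to 29 lower by 1.5-fold. The number of members lower by 2-fold was 1 in the main processing, 2 at a pseudocount of 0.1, where E2F8 was added, and 0 at a pseudocount of 5, with FPKM, with median centring and with trimmed mean scaling. E2F4 turned from -0.08 to 0.0076 with median centring and 0.0056 with trimmed mean scaling. At a pseudocount of 5, 1 gene of the pocket protein and MuvB list was past 1.5-fold in place of 3, and 2 apoptosis targets in place of 4. Of all genes, 389 were higher and 353 lower by 2-fold at a pseudocount of 0.1, 58 and 45 at 5, 113 and 67 with FPKM, and 121 and 115 with a minimum of 5 TPM, and 114 were lower after median centring. A larger pseudocount and the smaller FPKM values shrink differences of low genes by construction. FPKM did more than that: the difference of E2F6 rose from 0.26 to 0.28. By FPKM 56.8% of measured genes were below 0, against 59.7% by TPM. No paired analysis was possible because each condition has 1 library. Depth limits E2F3 and E2F5 most, which had an estimated 174 and 229 read pairs in control by coverage.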

Other observations

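Over all measured genes with a promoter in the RefSeq table, the 631 that held the E2F site of 8 letters before a start had a median difference of -0.16, and 69.4% of them were below 0. The 10267 without it had a median of -0.08, with 60.0% below 0. Lower by 1.5-fold or more were 11.1% of the first and 6.20% of the second. Without the GC and length trend the medians were -0.13 and -0.06. Among the targets of G1 and S phase, the 15 with the site had a median of -0.65 and the 24 without it -0.60. Lower by 1.5-fold or more were 66.7% of the 15 and 50% of the 24, and 73.3% and 45.8% without the GC and length trend. These are descriptions of 2 libraries with no test. In groups of 15 and 24, few genes crossing the limit move a share by several points. The trend removed was that of transcript GC and length, not of promoter sequence.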
